A study of Arabidopsis thaliana with 12 samples.

Results

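The germin-like protein cluster of Arabidopsis thaliana is a row of tandem gene copies on chromosome 5 that runs from AT5G39100 to AT5G39190. Its 8 listed genes were looked up by locus, and 6 of them were among the 27827 loci of the table: AT5G39100, AT5G39110, AT5G39120, AT5G39130, AT5G39150 and AT5G39180. AT5G39160 and AT5G39190 had no row under their locus and are not analysed here. The cluster was chosen by measured values, namely the large difference of AT5G39150 between PMEIox and the other genotypes in these same arrays, so every comparison with PMEIox is given as a description and no p-value is printed for the members there.

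Germins and germin-like proteins belong to the cupin family, whose members fold into a small barrel that can bind a metal ion, and most of them are glycoproteins secreted into the cell wall. Cereal germins are oxalate oxidases, which release hydrogen peroxide in the wall, and several germin-like proteins of other plants have superoxide dismutase activity. The genes are often found as tandem copies of closely similar sequence. RefSeq names AT5G39100 as GLP6 (germin-like protein 6) and AT5G39190 as GER2 (germin-like protein 2), and gives the other 6 listed genes no symbol beyond the locus.

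Transcripts were measured on 12 Affymetrix arrays, 3 per genotype, with RNA from whole seedlings grown in darkness for 4 days at 22 °C, after 48 h in the cold and 6 h of white light. The groups were cnu1 and cnu2, suppressor mutants that carry the PMEIox transgene, PMEIox itself, which is a transformant in the Col-0 background, and wild-type Col-0. PMEIox overexpresses PMEI5 (AT2G31430), an inhibitor of the pectin methylesterases that remove methyl groups from wall pectin. The suppressors are known to be mutated in the brassinosteroid receptor gene BRI1 (cnu1) and in the receptor-like protein gene RLP44 (cnu2). Each of the 3 modified genotypes is a single line. The 3 arrays of a genotype, lettered A, B and C, were biological replicates. The design text places the harvests in successive weeks, and the labels do not say which letter belongs to which week.

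PMEI5 served as the check of the labels and averaged 12.64 ± 0.04 in cnu1, 12.61 ± 0.08 in cnu2, 12.66 ± 0.03 in PMEIox and 5.91 ± 1.99 in Col-0 (log2 intensity, SD, n = 3 each). BRI1, at genotype means from 7.47 to 7.81, and RLP44, near background at 2.72 to 3.06, are measured by transcript level and do not show the mutations. Col-0 A stood apart from the other wild-type arrays, with 8.19 for PMEI5 against 5.05 in Col-0 B and 4.49 in Col-0 C, so differences of AT5G39150 from Col-0 are also given without it. All arrays had the same set of sorted values, from 0.785 to 13.89 with a median of 5.47. There are no detection calls, so a level was termed near background when its genotype mean lay below 3.67, the 75th percentile of 18 pollen and tapetum genes, tissues that a seedling lacks. Over all arrays 26.2% of loci had a mean below that limit. With 3 arrays a genotype, precision is limited by their number: over all loci the standard error of a difference had a median of 0.137. In RNA from whole seedlings, fewer cells that express a gene and less RNA per cell cannot be told apart. Root markers were well measured in all genotypes (9 of 11 or more above the limit). Of 5 green tissue markers, the chlorophyll-binding protein genes LHCB1.1 and LHCA1 were near background in all 4 genotypes. The others lay above the limit, with genotype means of 9.29 to 9.96 (LHCB1.3), 6.39 to 7.06 (LHCB2.2) and 13.28 to 13.34 (RBCS1A).

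AT5G39150 was the member with a large difference. In cnu1 its log2 intensity was 2.1 in replicate A, 2.15 in B and 1.37 in C. In cnu2 it was 3.46, 2.36 and 2.35 in A, B and C. PMEIox gave 5.58, 5.0 and 4.67 in the same order, and Col-0 gave 2.18, 2.08 and 2.1. The 3 PMEIox arrays lay above all 9 others, and the nearest array of another genotype was cnu2 A, which in turn lay apart from cnu2 B and C.

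The genotype means of AT5G39150 were 1.87 ± 0.44 in cnu1, 2.72 ± 0.64 in cnu2, 5.08 ± 0.46 in PMEIox and 2.12 ± 0.05 in Col-0 (SD, n = 3 each). Only the PMEIox mean lay above the near-background limit. The 18 pollen and tapetum genes that set this limit had a highest mean of 4.79, which PMEIox C at 4.67 did not exceed. PMEIox exceeded Col-0 by 2.96 ± 0.31 on the log2 scale (SE), which is 7.80-fold in intensity. Against PMEIox, AT5G39150 was lower by a log2 difference of -3.21 ± 0.31 in cnu1, and by -2.36 ± 0.31 in cnu2 (SE). The level in PMEIox was 9.27-fold that in cnu1 and 5.13-fold that in cnu2. The lower group was near background in each of these comparisons, where intensity says little about transcript level, so the folds are ratios of intensity. The differences share the PMEIox arrays and are not independent of each other.

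**Figure D1:**
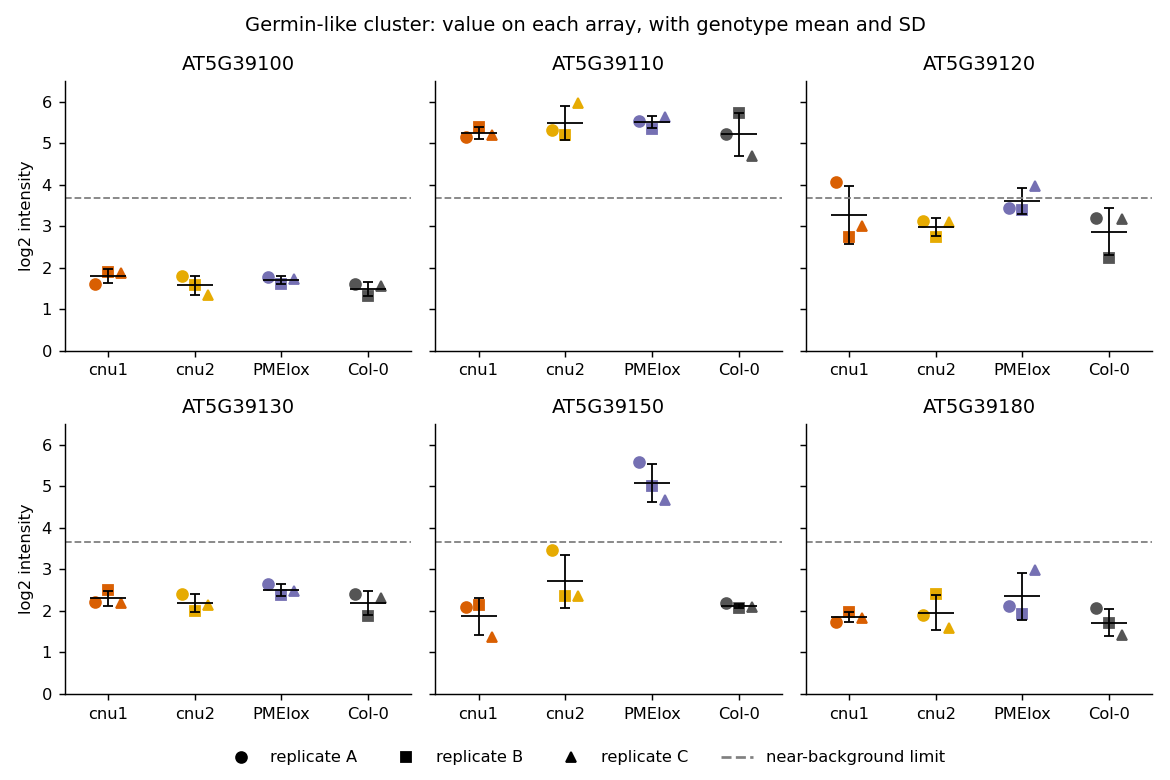
Log2 intensity of the 6 measured genes of the cluster on each of the 12 arrays, by genotype (cnu1, cnu2, PMEIox, Col-0), with black bars for the genotype mean and SD and a dashed line at the near-background limit of 3.67. AT5G39150 stands at 5.08 in PMEIox and below the line in the other genotypes, AT5G39110 lies above the line on all arrays, and the other 4 genes have all genotype means below it.

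In the same fit, limma with Benjamini-Hochberg adjustment over all loci, AT5G39150 alone of the 6 members passed an adjusted p under 0.05 between PMEIox and Col-0, where 5.25% of all loci passed. AT5G39150 was likewise the passing member, 1 of 6, between cnu1 and PMEIox (6.44% of all loci) and between cnu2 and PMEIox (3.25% of all loci). Nothing is read from these counts, since the cluster was chosen on these contrasts. Calls among dim loci were rarer than among all loci: of the 7301 loci with a mean below the limit over all arrays, 1.56% passed between PMEIox and Col-0, 1.59% between cnu1 and PMEIox, and 1.01% between cnu2 and PMEIox. Without Col-0 A, PMEIox exceeded Col-0 by 2.99 at AT5G39150.

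The remaining members had small differences between genotypes. AT5G39100, annotated as GLP6, was near background on every array. Its values were 1.61, 1.90 and 1.87 in cnu1, 1.80, 1.59 and 1.35 in cnu2, 1.78, 1.61 and 1.73 in PMEIox, and 1.60, 1.31 and 1.57 in Col-0. Its lowest and highest arrays differed by 0.59, the narrowest range among the 6 members.

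AT5G39110 was the only member above the near-background limit in all 4 genotypes. It measured 5.14, 5.40 and 5.20 in cnu1, 5.32, 5.21 and 5.96 in cnu2, 5.53, 5.35 and 5.64 in PMEIox, and 5.23, 5.73 and 4.70 in Col-0. The genotypes overlapped throughout, and the wild-type values alone spanned 1.03, more than any difference between genotype means. PMEIox differed from Col-0 by 0.29 ± 0.24, cnu1 from PMEIox by -0.26 ± 0.24 and cnu2 from PMEIox by -0.01 ± 0.24 (SE).

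AT5G39120 varied most between replicates after genotype was taken into account, with a residual SD of 0.49 that exceeded those of 99.1% of all loci. Values were 4.06, 2.75 and 3.00 in cnu1, 3.13, 2.74 and 3.10 in cnu2, 3.45, 3.39 and 3.96 in PMEIox, and 3.21, 2.23 and 3.18 in Col-0. The 3 PMEIox values lay above the 3 of Col-0 and of cnu2, while cnu1 A was the highest of all arrays. The PMEIox mean of 3.60 was near background, and it differed from Col-0 by 0.73 ± 0.33 (SE).

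AT5G39130 read 2.21, 2.50 and 2.18 in cnu1, 2.42, 2.0 and 2.14 in cnu2, 2.66, 2.39 and 2.48 in PMEIox, and 2.40, 1.88 and 2.30 in Col-0. The arrays of all genotypes lay between 1.88 and 2.66, and PMEIox overlapped each other genotype. AT5G39180 read 1.74, 1.97 and 1.84 in cnu1, 1.90, 2.40 and 1.58 in cnu2, 2.13, 1.92 and 2.99 in PMEIox, and 2.06, 1.70 and 1.41 in Col-0. PMEIox C was its highest array, and the other PMEIox arrays lay within the range of the remaining genotypes. PMEIox differed from Col-0 by 0.32 ± 0.16 at AT5G39130 and by 0.63 ± 0.27 at AT5G39180 (SE).

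Taking the 5 members other than AT5G39150, the log2 difference of PMEIox from Col-0 ran from 0.21 to 0.73, with a median of 0.32 where the median of all loci was 0.00. All 5 estimates were above 0, as were 49.1% of all loci, and none of the 5 passed the test. Counting AT5G39150, 3 of 6 members had an unadjusted p under 0.05 there, the others being AT5G39120 and AT5G39180, where 18.5% of all loci did, and as above nothing is read from that count. Their differences ran from -0.50 to 0.09 between cnu1 and PMEIox, and from -0.61 to -0.01 between cnu2 and PMEIox, again with 0 of 5 passing.

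**Figure D2:**
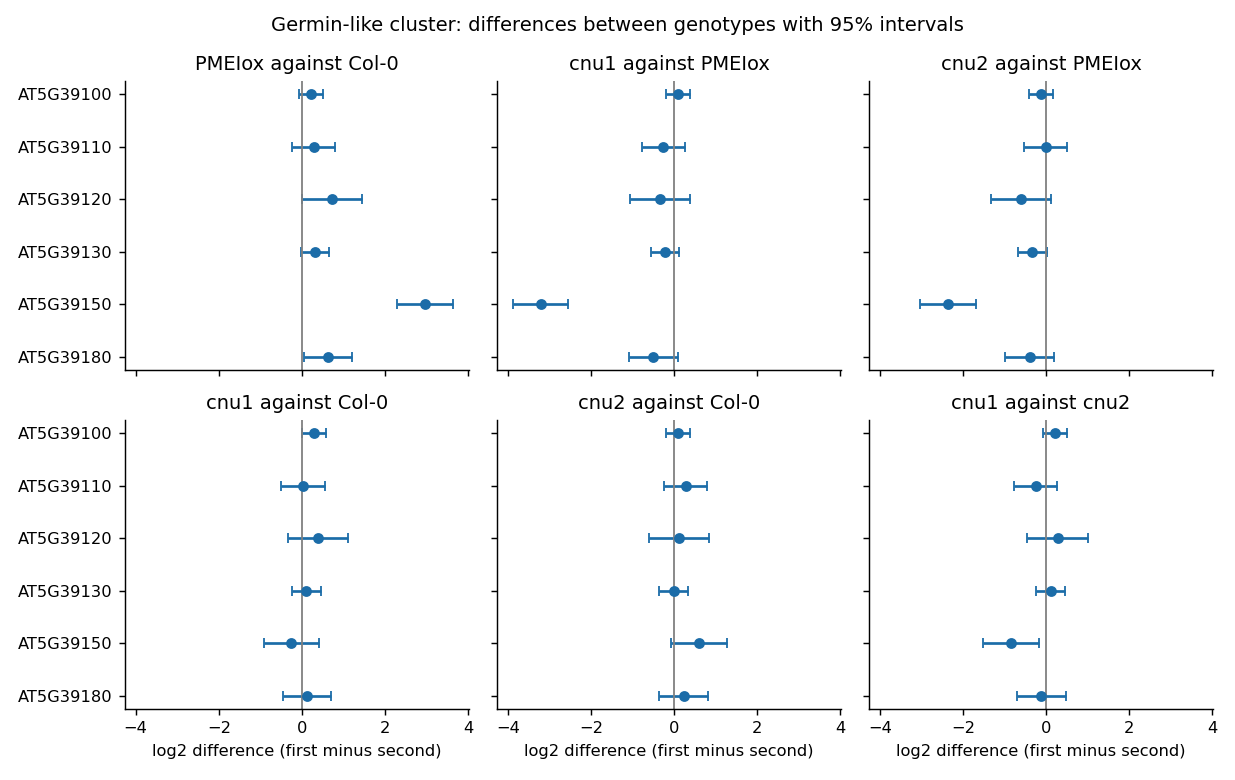
Log2 differences, first genotype minus second, of the 6 measured genes in the 6 comparisons, with points for the estimate and bars for the 95% interval of the fit on all 12 arrays. AT5G39150 stands at 2.96, -3.21 and -2.36 in the comparisons with PMEIox in the upper row, and the lower row has all estimates between -0.85 and 0.60.

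The comparisons that leave out the PMEIox arrays ask whether the suppressors differ from wild type or from each other at these genes. At AT5G39150 the low values of cnu1, cnu2 and Col-0 were part of the choice of the cluster. Tests of that gene among these genotypes are not independent of the choice, and no likeness of the genotypes is read from them. Between cnu1 and Col-0, 0 of 6 members passed limma's test, where 0.622% of all loci did. There 1 member, AT5G39100, had an unadjusted p under 0.05, as did 13.9% of all loci. Between cnu2 and Col-0, 0 of 6 passed, where 0.187% of all loci did, and 0 had an unadjusted p under 0.05 (11.3% of all loci). Between cnu1 and cnu2, 0 of 6 passed, where 0.568% of all loci did. AT5G39150 alone of the members had an unadjusted p under 0.05 there, as did 8.55% of all loci.

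AT5G39150 in cnu1 differed from Col-0 by -0.25 ± 0.31 (SE, limma adjusted p = 0.777), with a 95% interval from -0.92 to 0.42, and without Col-0 A the difference was -0.22. In cnu2 it differed from Col-0 by 0.60 ± 0.31 (SE, limma adjusted p = 0.493), with an interval from -0.07 to 1.28. The 3 cnu2 values lay above the 3 wild-type values by a gap of 0.17. Without cnu2 A this difference was 0.24, and without Col-0 A it was 0.63.

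Set against each other, cnu1 was lower than cnu2 at AT5G39150 by a log2 difference of -0.85 ± 0.31 (SE, limma adjusted p = 0.413, interval from -1.52 to -0.18), which did not pass after adjustment. The values of the suppressors did not overlap, with 2.15 as the highest of cnu1 and 2.35 as the lowest of cnu2. Array A of cnu2 carried much of this, and without it the difference was -0.48. Without cnu1 C it was -0.60. These means are all near background, where the deposited values say little about level.

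The other 5 members differed from Col-0 by 0.03 to 0.40 in cnu1 (limma adjusted p from 0.335 to 0.976) and by -0.01 to 0.28 in cnu2 (limma adjusted p from 0.712 to 0.992). Between the suppressors they differed by -0.25 to 0.28 (limma adjusted p from 0.753 to 0.970). AT5G39100 was the member nearest to a difference, at 0.30 ± 0.13 between cnu1 and Col-0 (SE, limma adjusted p = 0.335), with the lowest cnu1 value and the highest wild-type value 0.01 apart.

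Over the 12 arrays the members did not vary as a block. Among their 15 pairs, Pearson's r across arrays ran from -0.33 to 0.67 with a median of 0.32. With genotype means removed it ran from -0.50 to 0.73 with a median of 0.03, and 8 of 15 pairs were above 0. AT5G39100 and AT5G39130 had the highest of these at 0.73, and AT5G39150 stood at 0.63 with AT5G39130. All pairs share the same arrays, and most members were near background, so these values are descriptions. Which probes stand behind each row is not given in the sources used here, and tandem copies of similar sequence can share probes, so a row's signal may include RNA of a neighbouring copy; this was not tested.

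The loci next to the cluster had no difference between PMEIox and Col-0 as large as that of AT5G39150, the gene chosen for its difference. Of the 10 nearest loci of the table, 5 on either side in locus order, 0 passed between PMEIox and Col-0 (5.25% of all loci). There 0 had an unadjusted p under 0.05 (18.5% of all loci), and log2 differences ran from -0.29 to 0.22. With 10 loci, counts of 0 say little against these shares. AT5G39090, AT5G39200, AT5G39220 and AT5G39230 were near background in both genotypes. Between cnu1 and PMEIox 1 of 10 passed (6.44% of all loci). This was PMAT1 (AT5G39050), which encodes a malonyltransferase of phenolic glucosides, at -0.57 ± 0.15 (SE, limma adjusted p = 0.0452). Between cnu2 and PMEIox 2 of 10 passed (3.25% of all loci), AT5G39030 at 0.72 ± 0.14 and AT5G39080 at -0.51 ± 0.12 (SE, limma adjusted p = 0.0200 and 0.0370). These neighbour calls did not hold with fewer arrays: that of PMAT1 was lost without cnu1 A, cnu1 C or any PMEIox array, that of AT5G39080 without any of the 6 arrays, and that of AT5G39030 without cnu2 B or PMEIox C (limma adjusted p from 0.0622 to 0.158). AT5G39170, which lies between cluster members in locus order and is not among those listed, was near background, and PMEIox differed from Col-0 there by -0.36 ± 0.49 (SE, limma adjusted p = 0.771).

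**Figure D3:**
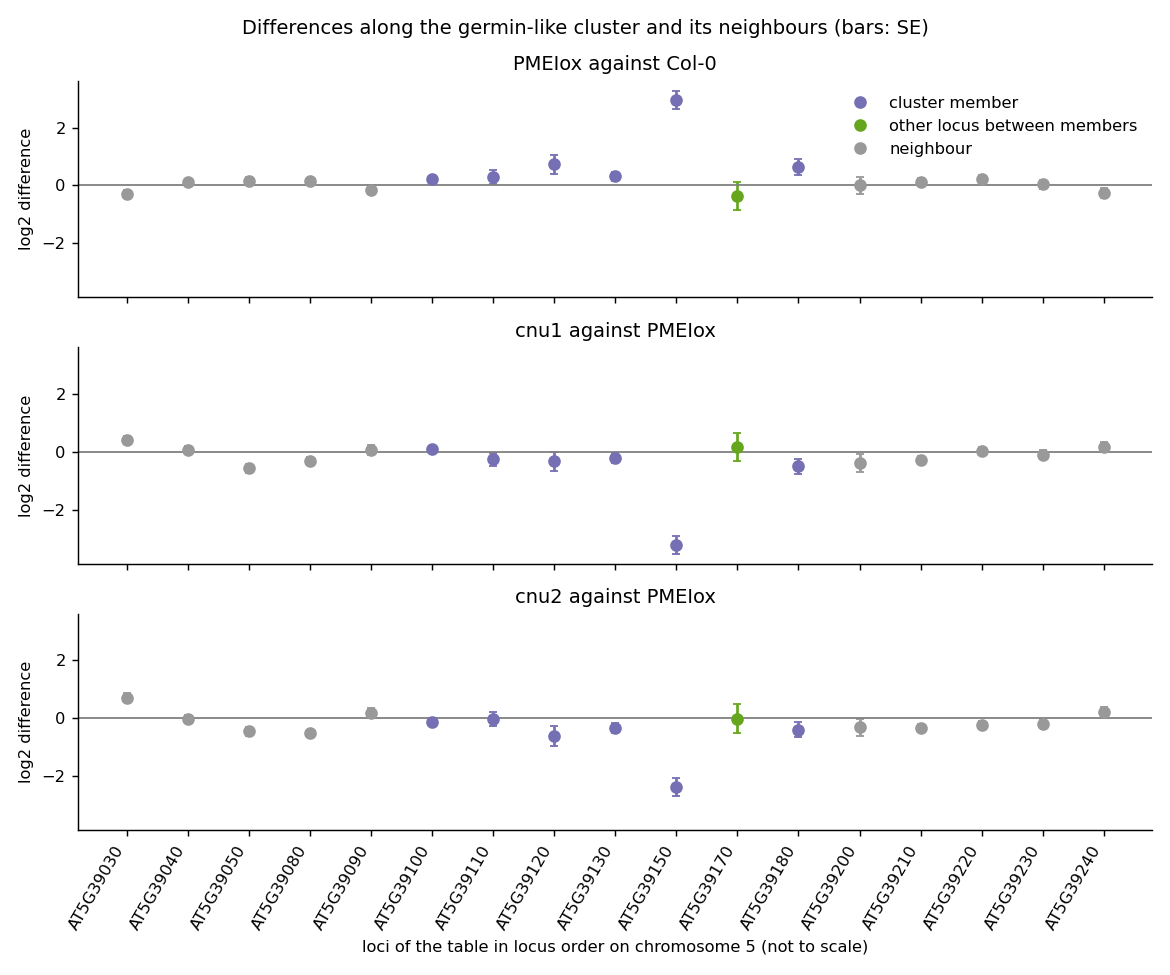
Log2 differences (bars: SE) of the cluster members, of AT5G39170 between them and of the 5 nearest loci on either side, in locus order on chromosome 5, for PMEIox against Col-0, cnu1 against PMEIox and cnu2 against PMEIox. AT5G39150 stands apart in all 3 panels, and the 10 neighbours lie between -0.29 and 0.22 in the first.

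No germin-like gene measured elsewhere in the genome differed between PMEIox and Col-0 by as much as AT5G39150. Nothing is read from this, since AT5G39150 was chosen by its difference between PMEIox and the other genotypes. Its rise in PMEIox against Col-0 ranked 10 from the top among 27827 loci. The log2 differences of the germin-like genes elsewhere ran from -0.93 (GLP10) to 0.37 (AT5G38960) between PMEIox and Col-0. Of 22 such genes, all measured, 0 rose and 2 fell between PMEIox and Col-0, with a median difference of -0.11, where all loci had 0.00. Of all loci 2.79% rose and 2.46% fell there. In cnu1 against PMEIox 4 rose and 0 fell (median 0.21), where 3.54% of all loci rose. In cnu2 against PMEIox 2 rose and 0 fell (median -0.07), where 1.78% of all loci rose. An unadjusted p under 0.05 was found for 5 of 22 between PMEIox and Col-0 (18.5% of all loci), 11 between cnu1 and PMEIox (19.6%) and 2 between cnu2 and PMEIox (16.8%). Against Col-0, 0 of 22 passed limma's test in cnu1 and 0 in cnu2, where 0.622% and 0.187% of all loci did. In those comparisons 3 and 4 had an unadjusted p under 0.05 (13.9% and 11.3% of all loci). Between cnu1 and cnu2 1 of 22 passed, where 0.568% of all loci did, with 7 at an unadjusted p under 0.05 (8.55% of all loci). With the trend and robust settings, or without the dimmest 40% of loci, GER1 passed between cnu2 and Col-0 (limma adjusted p = 0.0318 and 0.0424). Of the 22 genes, 8 were near background in all 4 genotypes and 12 lay above the limit in all 4.

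GL22 (AT1G02335), which encodes a germin-like protein of plasmodesmata, and GLP10 (AT3G62020) were the genes that fell in PMEIox. GL22 read 7.46, 7.39 and 7.59 in cnu1, 7.07, 7.19 and 7.22 in cnu2, 6.70, 6.67 and 6.24 in PMEIox, and 7.42, 7.40 and 7.30 in Col-0. All PMEIox values were the lowest, with no overlap. GL22 differed by -0.84 ± 0.12 between PMEIox and Col-0 (SE, limma adjusted p = 0.00181), by 0.94 ± 0.12 between cnu1 and PMEIox (SE, limma adjusted p = 0.000579), and by 0.63 ± 0.12 between cnu2 and PMEIox (SE, limma adjusted p = 0.0182). GLP10 averaged 5.23 ± 0.20 in cnu1, 4.85 ± 0.26 in cnu2, 4.16 ± 0.26 in PMEIox and 5.09 ± 0.16 in Col-0 (SD, n = 3 each). It differed by -0.93 ± 0.17 between PMEIox and Col-0 (SE, limma adjusted p = 0.00646), by 1.07 ± 0.17 between cnu1 and PMEIox (SE, limma adjusted p = 0.00209), and by 0.68 ± 0.17 between cnu2 and PMEIox (SE, limma adjusted p = 0.0478). With an array fewer, the calls between cnu2 and PMEIox were lost in part while the differences stayed similar. GL22 was not called without cnu2 B or without cnu2 C, at differences of 0.61 and 0.59 (limma adjusted p = 0.0698 and 0.0572). GLP10 was not called without cnu2 A, cnu2 B, PMEIox A or PMEIox C, at differences from 0.54 to 0.71 (limma adjusted p from 0.101 to 0.171). In a fit of cnu2 and PMEIox alone neither was called (limma adjusted p = 0.0828 for GL22 and 0.111 for GLP10).

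GER1 (AT1G72610), a germin-like protein gene of the wall, was the gene of this list that passed between the suppressors. It read 7.60, 7.53 and 7.39 in cnu1, 6.80, 6.85 and 6.80 in cnu2, 7.22, 6.88 and 7.02 in PMEIox, and 7.38, 7.21 and 7.31 in Col-0. The cnu1 values lay above and the cnu2 values below those of the other genotypes. The difference of cnu1 from cnu2 was 0.68 ± 0.10 (SE, limma adjusted p = 0.0128). That call was lost without cnu1 A, cnu1 B, cnu2 A or cnu2 C (limma adjusted p from 0.0524 to 0.0696). GER1 was also higher in cnu1 than in PMEIox by 0.46 ± 0.10 (SE, limma adjusted p = 0.0209), and GLP7 (AT1G10460) by 0.56 ± 0.14 (SE, limma adjusted p = 0.0334). Those calls were lost in 4 of the 6 omissions of an array for GER1 (all but those of cnu1 C and PMEIox A; limma adjusted p up to 0.0807) and in 5 of 6 for GLP7 (all but that of cnu1 A; limma adjusted p up to 0.121), and for both in a fit of cnu1 and PMEIox alone (limma adjusted p = 0.0711 and 0.0617). GLP7 was also called between PMEIox and Col-0 in a fit of those genotypes alone, at -0.456 (limma adjusted p = 0.0485, and 0.0882 in the fit reported). GER3 (AT5G20630) and GLP5 (AT1G09560), a further germin-like protein of plasmodesmata, passed in no comparison, and their differences ran from -0.21 to 0.15 and from -0.05 to 0.24.

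**Figure D4:**
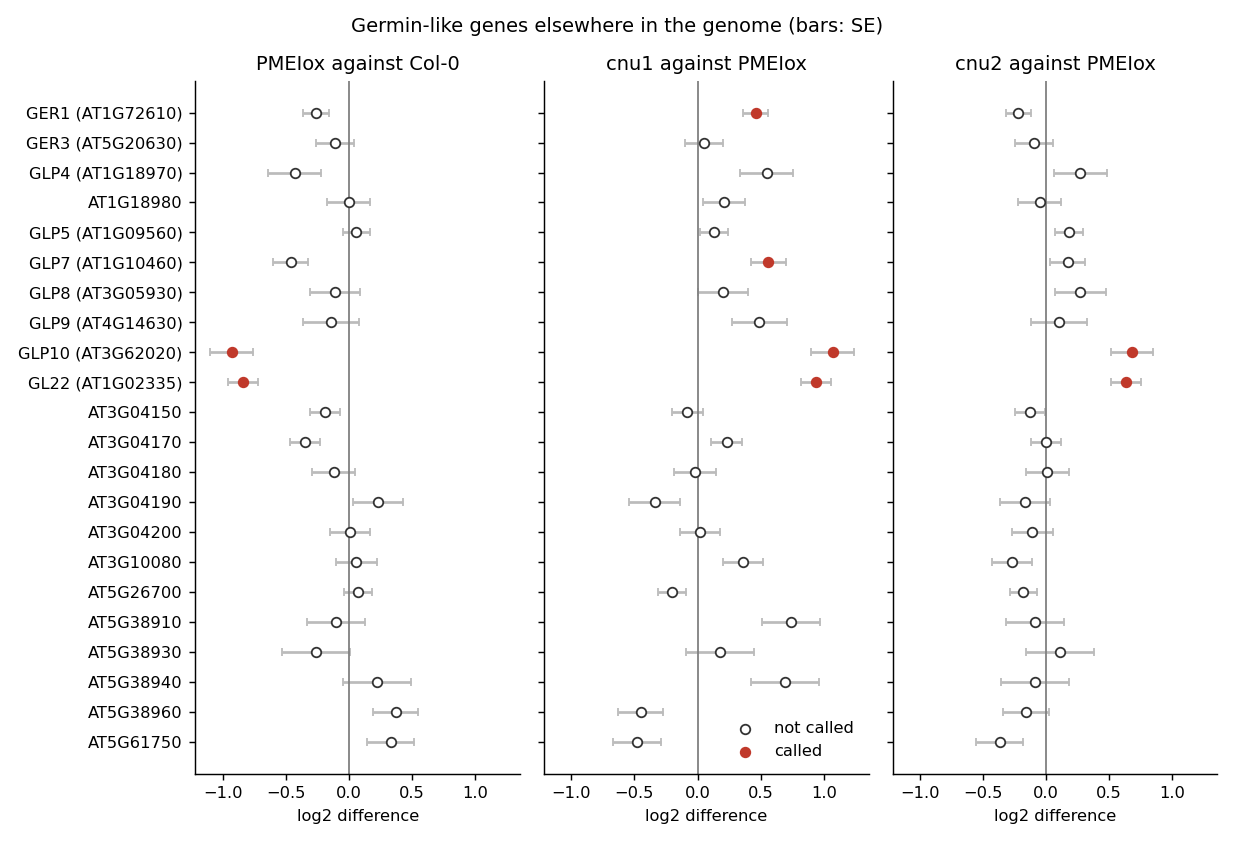
Log2 differences (bars: SE) of the 22 germin-like genes outside the cluster in PMEIox against Col-0, cnu1 against PMEIox and cnu2 against PMEIox, with filled points for genes that passed an adjusted p under 0.05. GL22 and GLP10 are filled in all 3 panels, at -0.84 and -0.93 in the first and above 0 in the others.

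Superoxide dismutases, enzymes whose activity some germin-like proteins share, were measured alongside. Of 7 genes, 1 rose and 0 fell between PMEIox and Col-0, where 2.79% of all loci rose and 2.46% fell. The gene that rose was FSD1 (AT4G25100), an iron superoxide dismutase, at 0.62 ± 0.11 (SE, limma adjusted p = 0.00472). FSD1 averaged 7.82 ± 0.04 in cnu1, 7.76 ± 0.13 in cnu2, 8.46 ± 0.10 in PMEIox and 7.84 ± 0.15 in Col-0 (SD, n = 3 each). It was lower in cnu1 than in PMEIox by a log2 difference of -0.63 and in cnu2 by -0.70 (limma adjusted p = 0.00323 and 0.00378). CSD2 (AT2G28190), a copper and zinc superoxide dismutase, fell in cnu1 by 0.69 against PMEIox and by 0.92 against Col-0 (limma adjusted p = 0.0195 and 0.0229). The call against Col-0 ended with the omission of any of the 6 arrays (limma adjusted p from 0.0506 to 0.122). That against PMEIox ended without cnu1 A, cnu1 C or PMEIox C (limma adjusted p from 0.0578 to 0.0800). With the trend and robust settings CSD2 was also called in cnu2 against Col-0, at -0.63 (limma adjusted p = 0.0424, and 0.163 in the fit reported). Against PMEIox, 2 of 7 genes fell in cnu1 (2.9% of all loci) and 1 in cnu2 (1.48% of all loci). Against Col-0, 1 of 7 fell in cnu1 (0.262% of all loci).

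The 5 loci outside the cluster whose values were most like those of AT5G39150 over the 12 arrays were TSD2 (AT1G78240), a methyltransferase gene of pectin synthesis, at a Pearson r of 0.980, ESE3 (AT5G25190), an ethylene-responsive transcription factor gene, at 0.975, AT1G78040 at 0.971, CLE6 (AT2G31085), which encodes a signalling peptide, at 0.964, and LRE (AT4G26466), which encodes a membrane-anchored protein known for pollen tube reception, at 0.963. They were picked for this likeness, and in each of them PMEIox had the highest mean. With genotype means removed, r with AT5G39150 was 0.884 for TSD2, 0.684 for ESE3, 0.611 for AT1G78040, 0.361 for CLE6 and 0.618 for LRE. TSD2 averaged 9.19 ± 0.09 in cnu1, 9.26 ± 0.06 in cnu2, 9.72 ± 0.10 in PMEIox and 9.24 ± 0.03 in Col-0 (SD, n = 3 each). LRE averaged 3.86 ± 0.22 in cnu1, 4.13 ± 0.37 in cnu2, 6.46 ± 0.34 in PMEIox and 4.01 ± 0.12 in Col-0 (SD, n = 3 each).

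**Figure D5:**
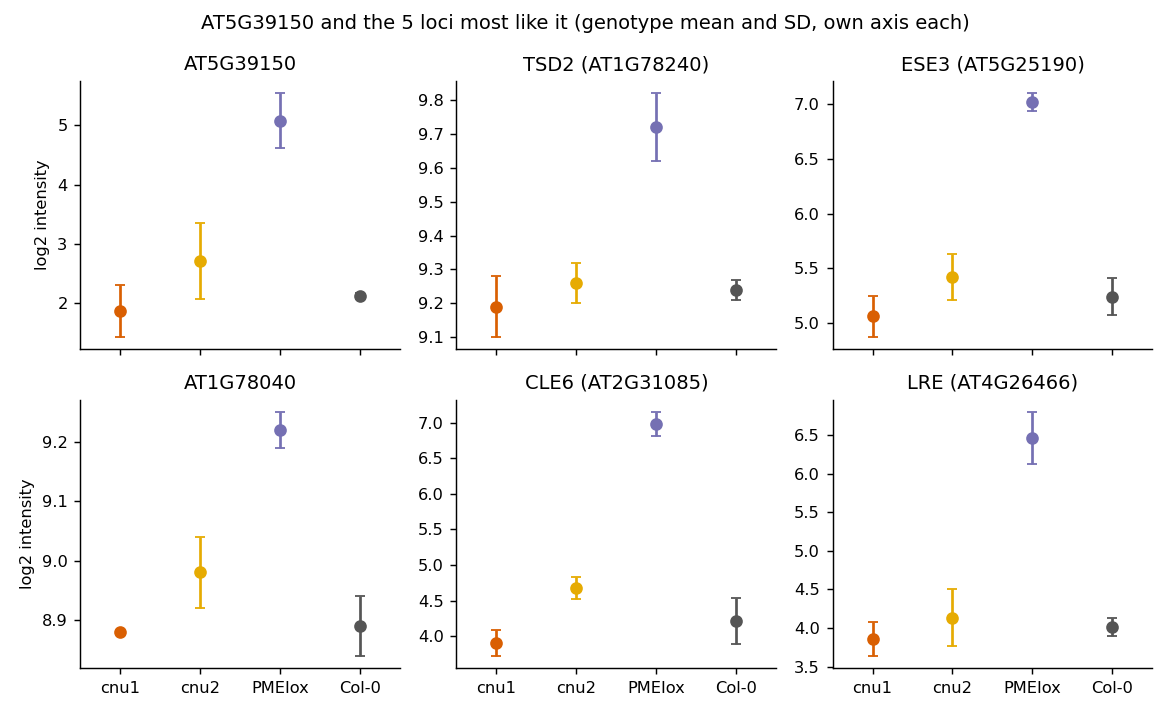
Genotype mean and SD (n = 3 each) of log2 intensity for AT5G39150 and for the 5 loci with the highest Pearson r with it over 12 arrays, each on its own axis, which does not start at 0. PMEIox is highest in all 6 panels, at 5.08 for AT5G39150 and 9.72 for TSD2.

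Seed storage transcripts moved between the genotypes along with AT5G39150. All 12 markers of this list passed and were higher in PMEIox than in Col-0, where 2.79% of all loci were. All 12 had lower means in each suppressor than in PMEIox, where 2.9% (cnu1) and 1.48% (cnu2) of all loci passed and were lower. Of the 12, 11 passed in each suppressor. The exception was CRA1, a storage globulin gene, at log2 differences of -2.20 in cnu1 and -2.44 in cnu2 (limma adjusted p = 0.0888 and 0.0876). The summed intensity of the list on the linear scale ran from 665 to 1654 in cnu1, from 688 to 1715 in cnu2, from 5601 to 7137 in PMEIox and from 727 to 859 in Col-0, and of the 12 only SESA1 was near background in the genotypes other than PMEIox. Within a genotype the order of arrays differed between the storage list and AT5G39150. In cnu1, cnu2 and PMEIox the order by storage sum was the reverse of that by AT5G39150. There cnu1 B, cnu2 A and PMEIox A had the highest AT5G39150 value and the lowest storage sum of their genotype (665, 688 and 5601). In Col-0 the order was not reversed, and Col-0 B was lowest in both (2.08 and 727). Root hair markers had summed intensities from 352 to 394 in cnu1, 256 to 267 in cnu2, 311 to 569 in PMEIox and 221 to 241 in Col-0. Of these 12 markers 5 passed and were higher in PMEIox than in Col-0, as were 2.79% of all loci. The count was 3 without Col-0 A and 2 in a fit of those genotypes alone. PRP3, COW1, RHD6 and EXT12 were near background in all 4 genotypes. Of 11 root markers 0 passed between PMEIox and Col-0, where 5.25% of all loci did. There 1 had an unadjusted p under 0.05 (18.5% of all loci), and 1 was called with the trend and robust settings. The part of these tissues in the AT5G39150 values was not tested.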

How the data were processed

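The deposited table holds 1 value per locus and array, read as log2 intensity from its range; the log base, array type, background correction, probe summary, probe sequences and software are not given in the sources used here. Per the labels' protocols, total RNA was labelled as biotinylated cRNA for Affymetrix arrays. All arrays had identical sorted values, so the authors had given them a common distribution before deposit, and the values were used as they stand. Loci were matched to RefSeq names (TAIR10.1; 27241 matched, 586 not), without coordinates. Sequences were not used here.

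All 27827 loci were fitted with limma 3.58.1 (R 4.3.3; lmFit on the means of 4 genotypes, eBayes, 8 residual and 4.06 prior degrees of freedom). Two-sided p-values, adjusted over the whole table by Benjamini-Hochberg, were called under 0.05 in 6 comparisons. A difference is the first genotype minus the second. The script was tested on simulated data. Statmod 1.5.0 served the robust setting and matplotlib 3.10.9 the figures.

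The members, lists, near-background limit and tests were chosen with earlier results of these data known. The text names all 6 measured members, the label-check genes, GER1, GER3, GLP5 and the genes called in the germin-like list (in 3 comparisons up to 4 each), the 5 loci most like AT5G39150, and called neighbours. The superoxide dismutases, the calls of the germin-like list against PMEIox, CRA1 and AT5G39170 were named after their values were seen. The same likeness was planned for AT5G39160, which has no row.

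The replicate letters were checked as pairs: the deviations of same-letter arrays from their genotype means, across loci, correlated above 0.1 for all 3 letters between cnu2 and Col-0 alone (0.1002 to 0.1725), and the labels do not tie letters to weeks. Alternatives were those given in the closing section.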

Additional observations from a re-analysis of the deposited data

How the results depend on the processing

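The counts of cluster members called changed under 1 alternative. Leaving out the 40% of loci with the lowest means removes all members but AT5G39110, so that 0 members were called between PMEIox and Col-0, between cnu1 and PMEIox and between cnu2 and PMEIox, in place of 1 each, because AT5G39150 is no longer tested. Trend and robust settings, the replicate block, array weights, centring on 10 reference genes, the fit of the compared genotypes alone and leaving out each array in turn left the counts at 1 in each comparison with PMEIox and at 0 in the other 3. Quantile normalization could change nothing, since the arrays already had identical sorted values. Each genotype has every letter once, so pairing by letter as a block cannot change a difference. That of cnu2 from Col-0 at AT5G39150 stayed at 0.604 for this reason. The block can change the tests, and no call on a member changed. The same block ended the calls of PMAT1 (AT5G39050) between cnu1 and PMEIox and of AT5G39080 between cnu2 and PMEIox (limma adjusted p = 0.0697 and 0.0508), where the correlations of same-letter arrays were not all above 0.1 (-0.105 to 0.0277 and 0.0912 to 0.1903). Beyond the cluster, GLP10 between cnu2 and PMEIox was also lost with centring on the reference genes (limma adjusted p = 0.0798), AT5G39030 and AT5G39080 in a fit of cnu2 and PMEIox alone (0.0523 and 0.0565) and PMAT1 in a fit of cnu1 and PMEIox alone (0.116). Leaving out an array gave AT5G39150 differences from 2.71 to 3.17 between PMEIox and Col-0, from -3.42 to -2.96 between cnu1 and PMEIox, and from -2.73 to -2.11 between cnu2 and PMEIox. Calls over all loci, which set the background shares, varied more: from 868 to 2043 (1460 in the fit reported) between PMEIox and Col-0, 1061 to 2487 (1792) between cnu1 and PMEIox, 395 to 1490 (905) between cnu2 and PMEIox, 45 to 631 (173) between cnu1 and Col-0, 0 to 236 (52) between cnu2 and Col-0, and 66 to 267 (158) between cnu1 and cnu2. The alternatives for genes and lists outside the cluster were chosen after seeing the data. With 3 arrays a genotype and no detection calls, differences among near-background members are measured poorly.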
